A study of Mus musculus with 24 samples.

Results

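The 8 genes described here code for proteins of fatty acid oxidation and of the fasting program that feeds ketone body synthesis: *Cpt1a*, *Cpt2*, *Acadm*, *Ehhadh*, *Pdk4*, *Angptl4*, *Creb3l3* and *Ppara*. They were taken by name from the 56691 genes of the count table, and each was found once. RNA from the distal jejunum of 24 mice was sequenced, with 1 library per mouse by the labels and 3 mice in each of 8 groups. The groups were male and female mice, wild type or *Ptk6*-/-, that drank either control water or water with 100 mM succinate for 7 days. All mice were on the C57BL/6 background, came from different litters of 1 colony and were 9 to 11 weeks old at the end. The *Ptk6*-/- mice carry a germline disruption, so the kinase PTK6 was missing from every cell type and throughout development, and not from the gut epithelium alone. The study asked how PTK6 shapes the response of the small intestine to succinate, a metabolite that activates tuft cells, in each sex.

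Long-chain fatty acids enter mitochondria as carnitine esters. CPT1A makes the ester at the outer membrane and CPT2 reverses it inside, after which the acyl-CoA dehydrogenases, among them ACADM for chains of medium length, start each round of beta-oxidation. EHHADH carries out the middle steps of the peroxisomal route. PPAR alpha, the nuclear receptor coded by *Ppara*, and CREB3L3, a transcription factor released from the endoplasmic reticulum membrane, switch on these genes in fasting liver and are both made in the small intestine. PDK4 turns glucose carbon away from mitochondria by blocking pyruvate dehydrogenase, and ANGPTL4 is a secreted inhibitor of lipoprotein lipase. No gene of the 8 codes for an enzyme that makes ketone bodies. Other genes of ketone body metabolism are given with the wider pathway, after the 8 genes.

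Total counts per library ranged from 8080321 to 52824743, and 3 libraries stood apart. Replicate 1 of the male wild type controls and replicate 1 of the male *Ptk6*-/- succinate mice had 51.2% and 29.7% of their counts on *Rn18s-rs5*, a gene for ribosomal RNA, against 0.108% to 4.49% in the other 22 libraries. The latter was also the library with 8080321 counts. Replicate 2 of the female wild type succinate mice held 20600 CPM (counts scaled to library size, TMM) over 8 heart muscle genes, led by *Myh6*, where the other 23 libraries held 16.0 to 233. This library, labelled female, also had 74.3 CPM over 4 Y-linked genes, with all 4 above 3 counts, beside 79.1 CPM of *Xist*. Markers of enterocytes, the cells of the labelled tissue, summed to 5870 to 31600 CPM with all 8 genes above 3 counts in every library. *Ptk6* had 284 to 2405 counts in the 12 wild type libraries and 7 to 61 in the 12 *Ptk6*-/- libraries. Results that rest on the 3 libraries are given with and without them.

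Promoter sequences are shown for 3 of the genes: *Cpt1a* and *Acadm*, which hold the half-site bound by nuclear receptors such as PPAR alpha, and *Pdk4*, which passed the test between genotypes and holds no match. Each runs from 250 bases before the start of the gene to 50 bases from it, 5′ to 3′ on the strand of the gene, as given by RefSeq for GRCm38.p6. The windows are chr19:3323051-3323350 (plus strand) for *Cpt1a*, chr3:153944594-153944893 (minus strand) for *Acadm* and chr6:5496229-5496528 (minus strand) for *Pdk4*. Capitals mark the half-site AGGTCA, which reads TGACCT where it lies on the opposite strand.
Cpt1a: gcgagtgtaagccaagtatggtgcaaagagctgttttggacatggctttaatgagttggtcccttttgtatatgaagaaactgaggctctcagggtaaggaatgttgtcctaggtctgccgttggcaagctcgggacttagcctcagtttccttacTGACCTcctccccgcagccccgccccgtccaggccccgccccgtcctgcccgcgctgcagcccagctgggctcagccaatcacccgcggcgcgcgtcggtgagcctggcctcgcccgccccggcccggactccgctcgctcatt
Acadm: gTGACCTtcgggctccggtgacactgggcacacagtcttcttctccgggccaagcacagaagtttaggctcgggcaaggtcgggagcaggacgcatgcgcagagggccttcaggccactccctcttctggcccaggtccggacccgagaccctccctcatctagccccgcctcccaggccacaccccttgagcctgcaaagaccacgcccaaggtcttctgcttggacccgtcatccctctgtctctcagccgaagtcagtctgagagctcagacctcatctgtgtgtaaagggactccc
Pdk4: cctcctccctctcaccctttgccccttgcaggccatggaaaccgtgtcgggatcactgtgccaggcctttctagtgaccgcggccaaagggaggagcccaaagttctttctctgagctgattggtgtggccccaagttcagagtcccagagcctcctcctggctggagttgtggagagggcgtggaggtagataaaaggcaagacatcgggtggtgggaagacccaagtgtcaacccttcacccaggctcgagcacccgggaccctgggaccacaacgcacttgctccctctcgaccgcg

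Of the 8 genes, 7 had a RefSeq promoter entry, with 2 entries for *Creb3l3*, and *Angptl4* had none. AGGTCA, searched on both strands, was found at bases -94 to -89 from the start of *Cpt1a*, at -249 to -244 of *Acadm* and, on the forward strand, at -202 to -197 of the first entry of *Creb3l3*. It occurs in 16.3% of all 32851 promoter windows, so matches in 3 genes describe these windows and mark no binding site. The direct repeat DR1, 2 copies of the half-site with 1 base between them and so a part of the half-site count, occurs in 0.0396% of all windows and in no window of the 7 genes. The full cyclic AMP element TGACGTCA (1.79% of all windows), the forkhead word TGTTTAC (3.65%) and TATAAA (13.6%) were also not found in those windows.

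The 8 genes differed widely in level. Compared per length, as FPKM, *Creb3l3* led with a median of 72.4 over the 24 libraries, followed by *Cpt2* with 37.9 and *Acadm* with 24.3. These 3 kept their order in 23 of the 24 libraries. *Ehhadh* came next with a median FPKM of 15.8. *Angptl4* (median FPKM 7.83) and *Cpt1a* (median FPKM 7.29) changed places between libraries, and their ranges of 0.608 to 24.4 and 1.37 to 20.8 overlapped almost fully. *Pdk4* (median FPKM 0.954) and *Ppara* (median FPKM 0.610) were lowest, and both were listed at 0 in replicate 1 of the male *Ptk6*-/- succinate mice, the library with the fewest counts. The order broke in 1 library, replicate 2 of the female wild type succinate mice, where *Acadm* was first with 63.7 FPKM and *Pdk4* was second with 50.6 FPKM.

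**Figure D1:**
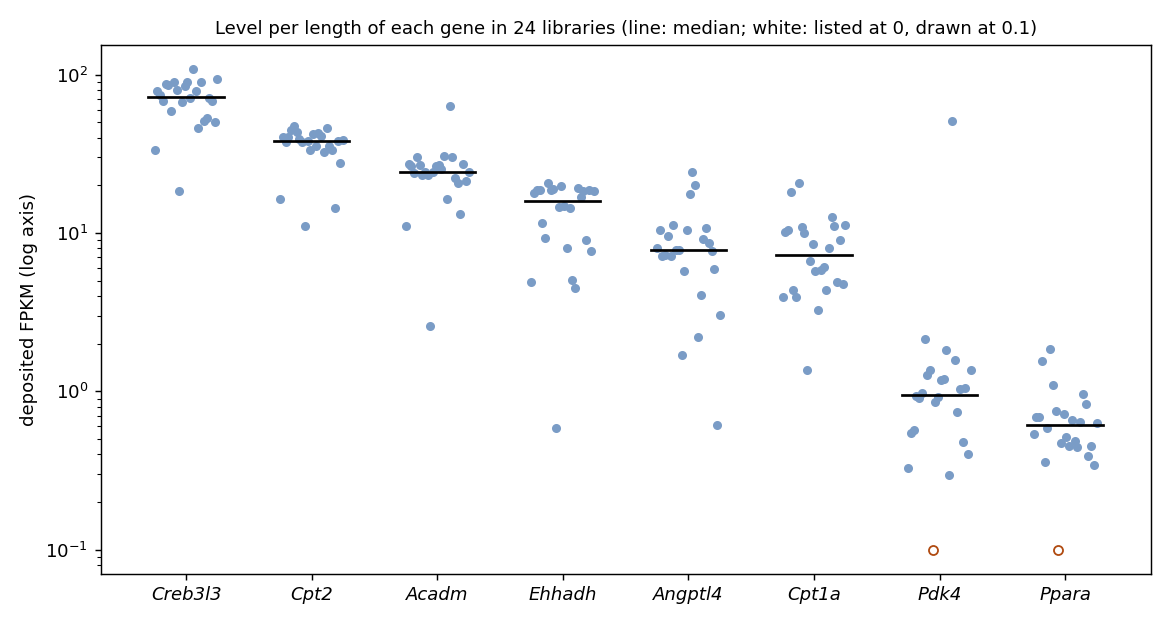
Deposited FPKM of the 8 genes (log axis) in each of the 24 libraries, ordered by median, with a line at the median and open circles for values listed at 0. *Creb3l3* stands at a median of 72.4 and *Ppara* at 0.610, and the single high point of *Pdk4* is 50.6.

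Libraries were compared by CPM. *Angptl4* varied most among the 21 libraries left without the 3 that stood apart, with a 43.6-fold range, and *Acadm* least, with a 1.95-fold range. The range was 5.91-fold for *Pdk4*, 5.09-fold for *Cpt1a*, 4.64-fold for *Ppara*, 3.64-fold for *Ehhadh*, 2.75-fold for *Cpt2* and 2.55-fold for *Creb3l3*. With the 8 groups ordered by mean CPM, all 7 pairs of neighbours overlapped for *Cpt2*, *Ehhadh*, *Creb3l3* and *Ppara*, and 6 of 7 for the other 4 genes. The neighbours apart from each other were male *Ptk6*-/- controls above male wild type controls for *Cpt1a*, male wild type controls above male *Ptk6*-/- controls for *Acadm*, female wild type controls above male wild type succinate mice for *Pdk4*, and female wild type controls above male wild type controls for *Angptl4*.

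**Figure D2:**
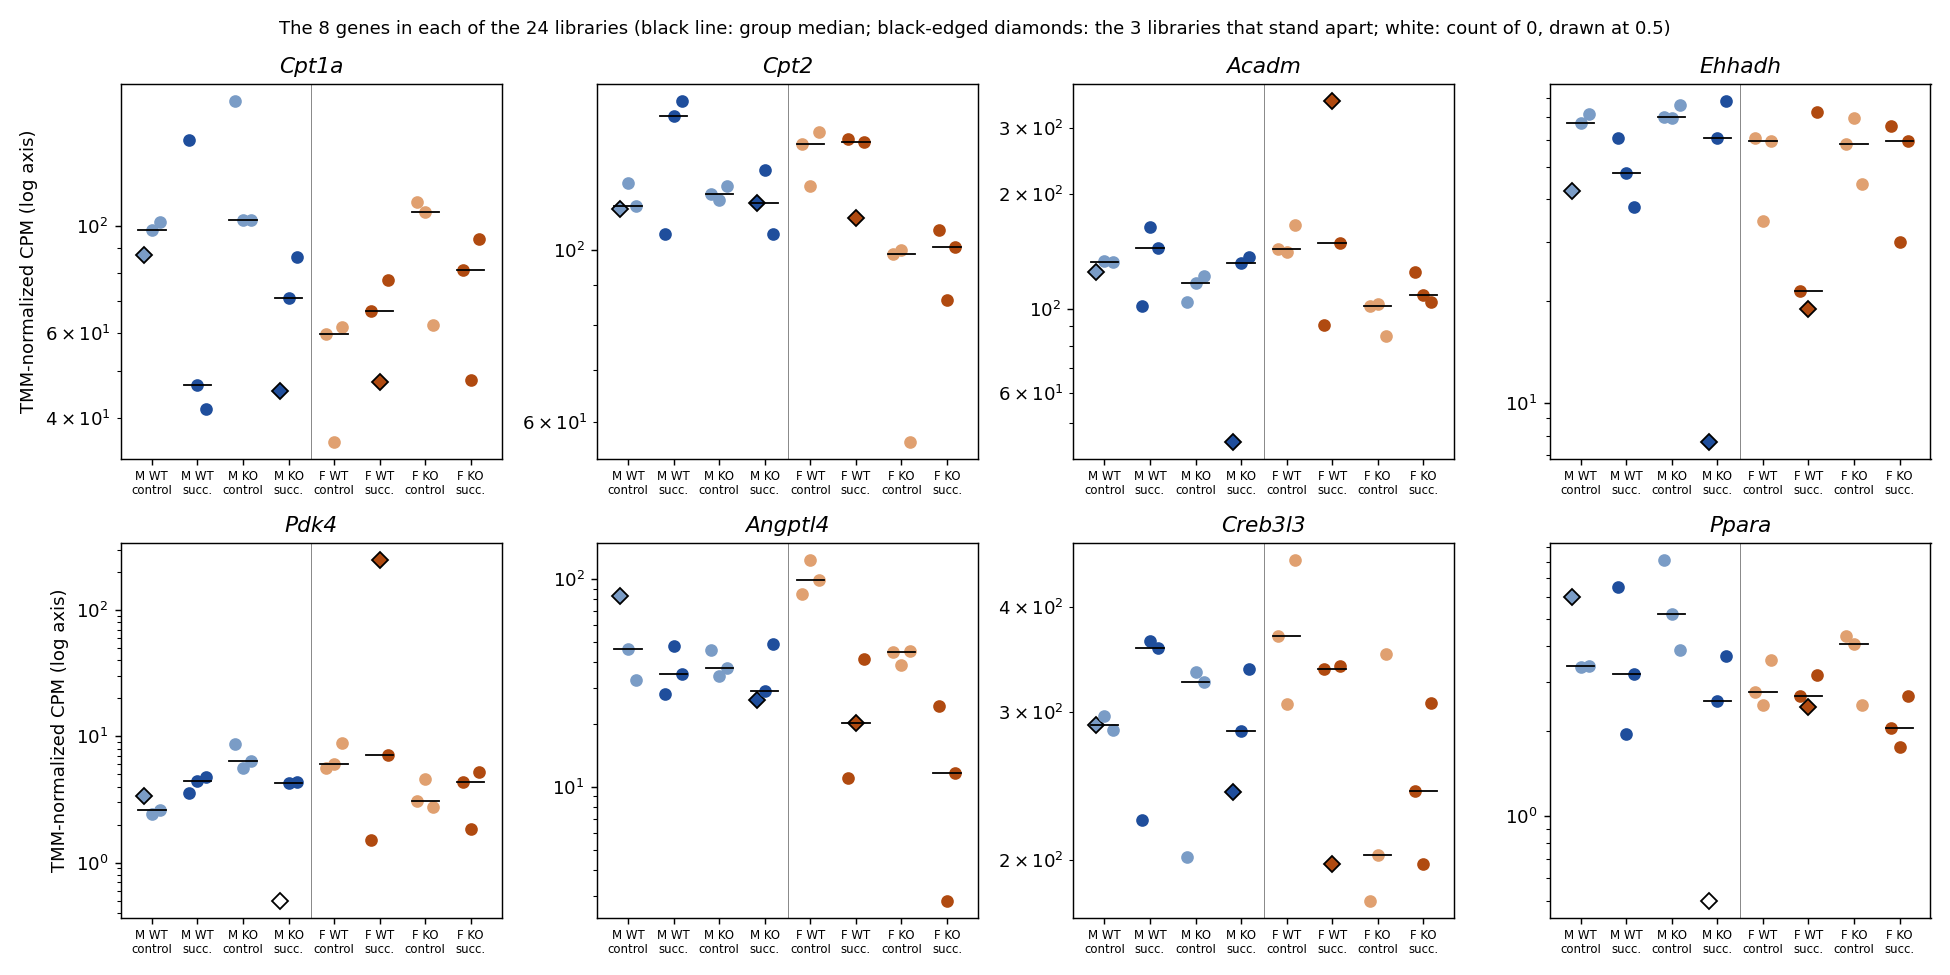
TMM-normalized CPM (log axis) of the 8 genes in each library by group (M male, F female, WT wild type, KO *Ptk6*-/-, succ. succinate), with a line at the group median and black-edged diamonds for the 3 libraries that stood apart. *Angptl4* is at 84.9 to 124 CPM in female wild type controls and at 2.84 to 24.5 CPM in female *Ptk6*-/- succinate mice, and the *Pdk4* diamond at 252 CPM is the library with heart transcripts.

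Of the 2 regulators, *Ppara* (ENSMUSG00000022383, chr15:85619184-85687020, plus strand) was a low transcript with 0 to 444 counts per library. Positions are those of the deposited table, for which the submitters' processing notes name GRCm39. In male *Ptk6*-/- controls *Ppara* stood at 8.14, 5.23 and 3.90 CPM, and in male wild type controls at 5.99, 3.37 and 3.42 CPM. The groups overlapped, and the log2 difference was 0.44 (SE 0.36, edgeR adjusted p = 0.496). The value of 5.99 CPM came from the library rich in ribosomal RNA, without which the groups did not overlap and the difference was 0.80 (SE 0.34, edgeR adjusted p = 0.191). After succinate the male *Ptk6*-/- libraries held 0, 2.56 and 3.70 CPM of *Ppara*, all below the control libraries of the same genotype, with a log2 difference of -1.30 (SE 0.74, edgeR adjusted p = 0.615). Without the library of 0 counts the difference was -0.92 (SE 0.36, adjusted p = 0.445). *Ppara* passed the edgeR test in none of the 15 comparisons. Voom with sample quality weights called it for succinate over all mice (-0.54, SE 0.18, adjusted p = 0.0409), where voom called far more of all genes than edgeR.

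*Creb3l3* (ENSMUSG00000035041, chr10:80920158-80934708, minus strand) was the most abundant of the 8 genes and the steadiest between groups, with group means from 245 to 378 CPM. Female wild type controls had 370, 307 and 456 CPM, and female *Ptk6*-/- controls 179, 203 and 352 CPM. The lower values belonged to 2 of the 3 *Ptk6*-/- libraries, while replicate 3 lay within the wild type range. The log2 difference of *Creb3l3* between these groups was -0.60 (SE 0.32, edgeR adjusted p = 0.514), and without replicate 3 of the female *Ptk6*-/- controls it was -0.93 (SE 0.23, adjusted p = 0.0374). Leaving out that library moved the share of all genes called from 0.0158% to 15% in control females and from 3.94% to 30.1% over all controls. The library also had the highest sum of enterocyte genes of its group, 29500 CPM against 16000 and 21100, and the highest sum of distal markers, 1730 CPM against 384 and 644. The part of these markers in the result was not tested. Over all controls the difference went from -0.32 (SE 0.19, edgeR adjusted p = 0.328) to -0.49 (SE 0.15, adjusted p = 0.0285) without the same library. In the other comparisons of 2 groups the log2 difference of *Creb3l3* lay between -0.35 and 0.10, with no call. Without the library with heart transcripts it moved from -0.35 to -0.12 for succinate in wild type females and from -0.23 to -0.46 between genotypes in succinate-treated females.

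Of the carnitine transferases, *Cpt1a* (ENSMUSG00000024900, chr19:3372334-3435733, plus strand) was the gene with values higher in *Ptk6*-/- controls of both sexes. Male *Ptk6*-/- controls had 182, 103 and 103 CPM, and male wild type controls 87.2, 98.2 and 102 CPM. In females the *Ptk6*-/- controls had 112, 107 and 62.2 CPM, and the wild type controls 59.8, 35.7 and 61.7 CPM. The genotypes did not overlap in either sex, by a narrow margin in both. The log2 difference of *Cpt1a* was 0.42 (SE 0.22) in males, 0.88 (SE 0.33) in females and 0.64 (SE 0.21) over all controls, and the edgeR adjusted p of 0.288, 0.404 and 0.0976 missed the threshold. The value in males rests on replicate 1 of the *Ptk6*-/- controls, with 182 CPM, and was 0.08 (SE 0.09) without it. That library had the lowest enterocyte, distal and proximal marker sums of the male controls, at 15900, 497 and 388 CPM. The part of this makeup in the *Cpt1a* result was not tested. An offset for the trend of each library with gene length also lowered the difference, to 0.15 (SE 0.20) in males and 0.38 (SE 0.16, edgeR adjusted p = 0.214) over all controls. In females alone *Cpt1a* passed without replicate 3 of the *Ptk6*-/- controls (1.12, SE 0.25, adjusted p = 0.0313). Over all controls the value passed with DESeq2 (adjusted p = 0.0267) and without that female library (0.76, SE 0.18, edgeR adjusted p = 0.00898).

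After succinate *Cpt1a* lay below the controls in the male *Ptk6*-/- libraries, which held 45.5, 70.9 and 86.2 CPM, but the difference did not pass the test (log2 difference -0.92, SE 0.33, edgeR adjusted p = 0.6). In male wild type mice after succinate *Cpt1a* was split, with 151 CPM in replicate 1 and 46.8 and 41.8 CPM in the others. Without replicate 1 of these mice the log2 difference moved from -0.27 to -1.15 (SE 0.12, edgeR adjusted p = 0.00525). In replicate 1 the 8 enterocyte genes summed to 14000 CPM and the distal markers to 482 CPM, the lowest of the 3 libraries for both. *Cpt1a* in females gave log2 differences of 0.30 (SE 0.31) in wild type mice, or 0.49 (SE 0.31) without the library with heart transcripts, and -0.36 (SE 0.36) in *Ptk6*-/- mice.

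*Cpt2* (ENSMUSG00000028607, chr4:107761178-107780807, minus strand) lay between 56.5 and 156 CPM in all 24 libraries. Female *Ptk6*-/- controls had 98.8, 100 and 56.5 CPM, and female wild type controls 137, 121 and 142 CPM. These groups did not overlap, with a log2 difference of -0.61 (SE 0.28, edgeR adjusted p = 0.461). In males the same comparison gave 118, 116 and 121 CPM in *Ptk6*-/- and 113, 122 and 114 CPM in wild type mice, a log2 difference of 0.01 (SE 0.10). *Cpt2* also did not overlap between the genotypes in succinate-treated females, with 106, 86.1 and 101 CPM in *Ptk6*-/- and 139, 110 and 138 CPM in wild type mice, and again missed the test (log2 difference -0.40, SE 0.28, edgeR adjusted p = 0.931). The succinate effect on *Cpt2* lay between -0.03 and 0.22 on the log2 scale in the 4 pairs of groups.

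Among the oxidation enzymes, *Acadm* (ENSMUSG00000062908, chr3:153627994-153650269, minus strand) was lower in the *Ptk6*-/- controls of both sexes, without a call. Male controls had 104, 117 and 122 CPM in *Ptk6*-/- and 125, 134 and 133 CPM in wild type mice. Female controls had 102, 103 and 84.7 CPM in *Ptk6*-/- and 144, 141 and 166 CPM in wild type mice. The genotypes did not overlap in either sex. The log2 difference of *Acadm* was -0.21 (SE 0.11) in males, -0.60 (SE 0.22) in females and -0.41 (SE 0.11) over all controls, where the edgeR adjusted p of 0.0554 lay just over the threshold. DESeq2 called *Acadm* with an adjusted p of 0.00164, and edgeR did so without replicate 3 of the female *Ptk6*-/- controls (-0.36, SE 0.09, adjusted p = 0.00957). Without the male wild type library rich in ribosomal RNA adjusted p was 0.102. After succinate the female wild type libraries had 90.7, 353 and 149 CPM of *Acadm*, and the high value was that of the library with heart transcripts. Without it the log2 difference from the controls moved from 0.40 (SE 0.47) to -0.30 (SE 0.30).

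*Ehhadh* (ENSMUSG00000022853, chr16:21580037-21606557, minus strand) passed the edgeR test in no comparison, and its groups overlapped in each of the 8 comparisons of 2 groups. Voom with sample quality weights called it for succinate in wild type males (-0.64, SE 0.17, adjusted p = 0.0285), where voom called far more of all genes than edgeR. In controls the log2 difference between genotypes was 0.24 (SE 0.17) in males, or 0.08 (SE 0.10) without the library rich in ribosomal RNA, and 0.20 (SE 0.29) in females. Its lowest values were 7.68 CPM in replicate 1 of the male *Ptk6*-/- succinate mice and 18.9 and 21.5 CPM in replicates 2 and 1 of the female wild type succinate mice, whose replicate 3 had 72.5 CPM. The only annotated overlap of the 8 genes is that of *Ehhadh* with a *U6* gene on the opposite strand, which had at most 1 count in a library.

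*Pdk4* (ENSMUSG00000019577, chr6:5483351-5496309, minus strand) rose in male *Ptk6*-/- controls and was the 1 gene of the 8 called there, where 4.23% of the 19218 genes tested were called. Male *Ptk6*-/- controls had 8.66, 5.57 and 6.43 CPM of *Pdk4*, and male wild type controls 3.40, 2.43 and 2.59 CPM. Every *Ptk6*-/- library was above every wild type library, with a log2 difference of 1.30 (SE 0.26, edgeR adjusted p = 0.0384), a 2.46-fold increase. Without replicate 1 of the wild type controls, the library rich in ribosomal RNA, it was 1.48 (SE 0.26, adjusted p = 0.0339). The call was lost without each of the other 5 libraries: adjusted p was 0.123 and 0.106 without replicates 2 and 3 of the wild type controls, and 0.0612, 0.0931 and 0.125 without replicates 1, 2 and 3 of the *Ptk6*-/- controls, with log2 differences of 1.09 to 1.43. It was also lost with an offset for the trend of each library with gene length (1.27, SE 0.27, adjusted p = 0.0733). Between the same groups the 5 goblet cell markers summed to 7430 to 8390 CPM in wild type and 10100 to 12900 CPM in *Ptk6*-/- controls, and the 4 enteroendocrine markers to 191 to 207 and 148 to 176 CPM, both without overlap. The 4 Paneth cell markers overlapped, with 12400 to 14900 CPM in wild type and 4530, 5430 and 13100 CPM in *Ptk6*-/- controls. The skeletal muscle genes, 5 of 6 of which were in the table, were lower in *Ptk6*-/- controls (12.7 to 28.8 against 29.0 to 37.6 CPM), and the 8 heart genes overlapped (16.0 to 37.0 against 21.9 to 52.4 CPM). The part of these cells in the *Pdk4* result was not tested.

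In female controls *Pdk4* lay the other way. The *Ptk6*-/- libraries had 3.05, 4.61 and 2.77 CPM, and the wild type libraries 5.60, 6.07 and 8.88 CPM. The groups did not overlap, but the log2 difference of -0.94 (SE 0.32) did not pass (edgeR adjusted p = 0.385). The difference between the sexes in this genotype effect was -2.23 (SE 0.42), with an unadjusted edgeR p of 0.000177 and an adjusted p of 0.904, in a comparison where edgeR called 0% of 20428 genes and 947 had an unadjusted p under 0.05. DESeq2 and voom with sample quality weights called it, with adjusted p of 0.00154 and 0.0395. Over the alternatives that kept all 12 libraries or left 1 out, the log2 value ran from -2.48 to -1.25.

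No comparison with succinate-treated mice called *Pdk4* with edgeR. Male wild type mice had 3.57, 4.45 and 4.75 CPM after succinate, just above their controls (log2 difference 0.60, SE 0.30, edgeR adjusted p = 0.947). Male *Ptk6*-/- mice had 0, 4.24 and 4.32 CPM, below their controls (-1.13, SE 0.73, adjusted p = 0.639), and the difference was -0.72 (SE 0.25, adjusted p = 0.441) without the library of 0 counts. The interaction of genotype and succinate in males was -1.72 (SE 0.86). Without the libraries that stood apart it was -1.49 (SE 0.36), with an unadjusted edgeR p of 0.00215 and an adjusted p of 0.928. Female *Ptk6*-/- mice had 4.32, 1.85 and 5.27 CPM, which overlapped their controls (0.11, SE 0.45).

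The female wild type succinate libraries had 1.50, 252 and 7.06 CPM of *Pdk4*, and the value of 252 was 28.3-fold above the highest of the other 23 libraries. It came from the library with heart transcripts, in which *Acadm* was 2.13-fold above the highest other library, while the other 6 genes lay within the range of the rest. PDK4 and ACADM are abundant in heart muscle, where fatty acids are the main fuel. The succinate effect on *Pdk4* in wild type females was 3.66 (SE 1.58) with this library and -0.66 (SE 0.62) without it. The genotype effect in succinate-treated females was likewise -4.45 (SE 1.66) with it and -0.17 (SE 0.72) without it, so both values rest on this 1 library. Over all mice the succinate effect on *Pdk4* was 0.83 (SE 0.50) with it and -0.26 (SE 0.31) without it.

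**Figure D3:**
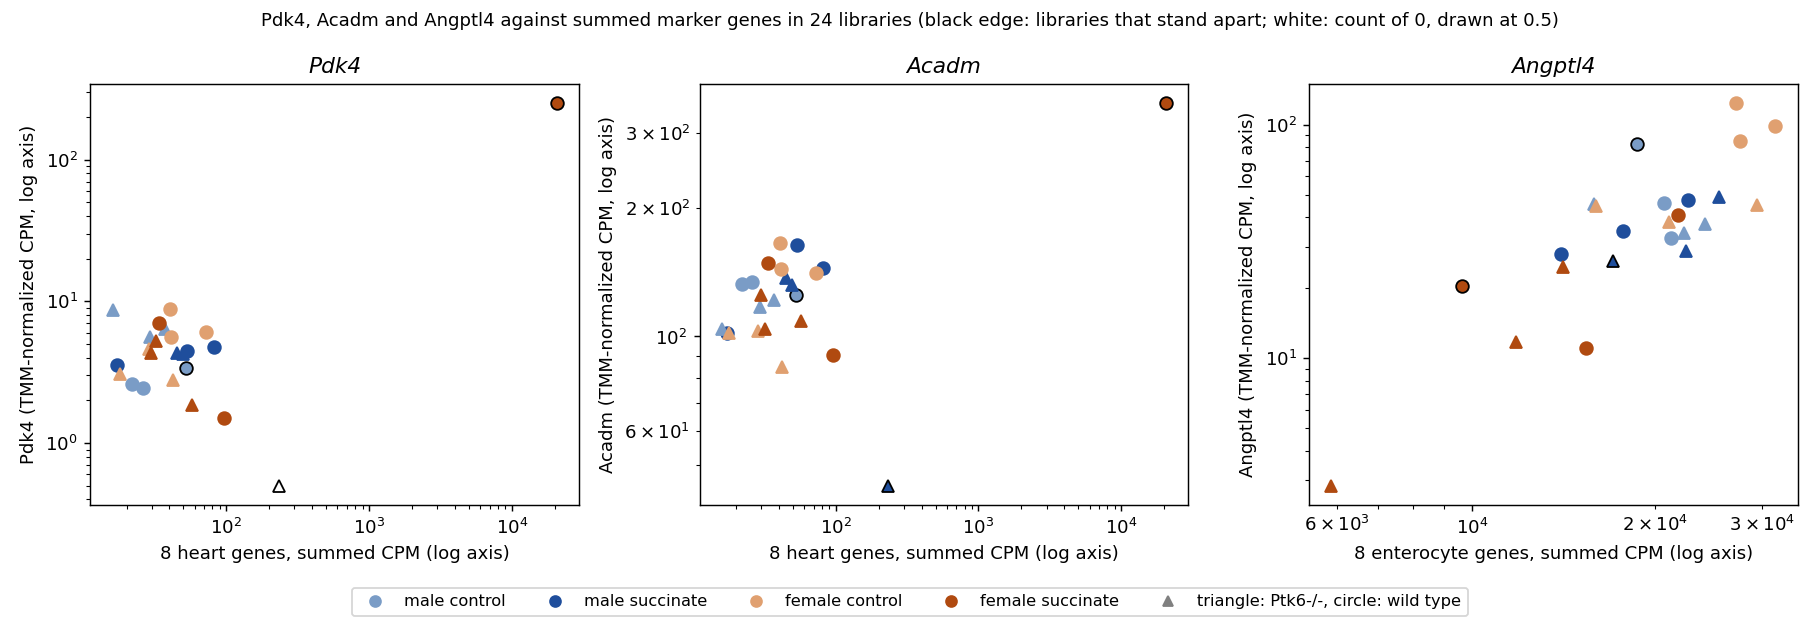
TMM-normalized CPM of *Pdk4* and *Acadm* against the summed CPM of 8 heart genes, and of *Angptl4* against the summed CPM of 8 enterocyte genes, in 24 libraries (all axes log; black edges mark the 3 libraries that stood apart). One library, at 20600 CPM of heart genes, holds the highest *Pdk4* and *Acadm*, and the 5 lowest *Angptl4* values, all in females after succinate, lie at 5870 to 15400 CPM of enterocyte genes.

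*Angptl4* (ENSMUSG00000002289, chr17:33992724-34000804, minus strand) was lower in *Ptk6*-/- than in wild type controls and lower after succinate, with the larger estimates in females. Female wild type controls had the highest levels of any group, 84.9, 124 and 98.8 CPM. Female *Ptk6*-/- controls had 44.7, 38.4 and 45.2 CPM, below every wild type library of their sex. Male wild type controls had 82.5, 46.2 and 32.6 CPM and male *Ptk6*-/- controls 45.5, 34.3 and 37.4 CPM, which overlapped, and the value of 82.5 came from the library rich in ribosomal RNA.

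Over all controls *Angptl4* fell in *Ptk6*-/- mice by 0.87 on the log2 scale (SE 0.22, edgeR adjusted p = 0.0474), the only call among the 8 genes in a comparison where 3.94% of 20428 genes were called. The call was narrow: it was lost without replicate 1 of the male wild type controls (-0.59, SE 0.16, adjusted p = 0.0766). With all 12 libraries, adjusted p was 0.051 with DESeq2's size factors in edgeR, 0.0547 with the length offset and 0.23 with limma on log2 FPKM. In 1 fit of all 24 libraries it was 0.384 (-0.86, SE 0.37). DESeq2 kept the call (adjusted p = 0.00494). Leaving out each of the 12 libraries in turn kept it only without replicate 3 of the male wild type or replicate 3 of the female *Ptk6*-/- controls, and adjusted p was 0.0509 to 0.113 without each of the other 10, which are all the remaining control libraries. Within males the log2 difference was -0.49 (SE 0.33, edgeR adjusted p = 0.401), and 0.01 (SE 0.20) without the library rich in ribosomal RNA. Within females it was -1.23 (SE 0.23), with an unadjusted edgeR p of 0.000841 and an adjusted p of 0.367, and DESeq2 called it with an adjusted p of 0.00129. It also passed without replicate 3 of the female *Ptk6*-/- controls (-1.25, SE 0.22, edgeR adjusted p = 0.0275). The interaction of sex and genotype for *Angptl4* was -0.73 (SE 0.43, edgeR adjusted p = 0.999), and -1.24 (SE 0.32, adjusted p = 1) without the library rich in ribosomal RNA. A difference between the sexes was not shown by this test.

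After succinate *Angptl4* reached 11, 20.3 and 41.1 CPM in female wild type mice and 24.5, 2.84 and 11.7 CPM in female *Ptk6*-/- mice. Within each genotype every female succinate library lay below every female control library. The males had 28.0, 47.5 and 35.1 CPM in wild type and 26.1, 28.8 and 48.9 CPM in *Ptk6*-/- mice, which overlapped their controls. The log2 difference of *Angptl4* was -2.07 (SE 0.47, edgeR adjusted p = 0.433) in wild type females and -1.75 (SE 0.65, adjusted p = 0.432) in *Ptk6*-/- females. It was -0.57 (SE 0.38) in wild type males, and -0.08 (SE 0.30) without the library rich in ribosomal RNA, and -0.15 (SE 0.27) in *Ptk6*-/- males. DESeq2 called the difference in wild type females (adjusted p = 0.00342), and edgeR did so without replicate 3 of the succinate libraries (-2.67, SE 0.36, adjusted p = 0.0209). Without the library with heart transcripts it was -1.96 (SE 0.56, adjusted p = 1).

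Averaged over the 4 pairs of groups, *Angptl4* fell after succinate by 1.13 on the log2 scale (SE 0.26, edgeR adjusted p = 0.0402), a 2.19-fold decrease and the only call among the 8 genes, where 1.03% of 21694 genes were called. Without the 3 libraries that stood apart it fell by 0.95 (SE 0.29) and adjusted p was 0.195. Leaving out 1 library at a time, the call was kept without replicate 3 of the male wild type controls, replicate 1 of the male wild type succinate, replicate 3 of the male *Ptk6*-/- succinate, replicate 3 of the female wild type succinate, or replicate 1 or 2 of the female *Ptk6*-/- succinate mice. It was lost without any one of the other 18 libraries, with adjusted p from 0.0545 to 0.0899 and log2 differences from -1.19 to -1.01. The difference between the sexes in the succinate effect, a comparison added after these values were seen, was -1.55 for *Angptl4* (SE 0.53, edgeR adjusted p = 0.355, with an unadjusted p of 0.00779), where 0.0738% of genes were called.

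The levels of several marker lists differed between the same groups. In females the 8 enterocyte genes summed to 27200 to 31600 CPM in wild type controls and 16000 to 29500 CPM in *Ptk6*-/- controls, against 9620 to 21800 CPM and 5870 to 14100 CPM after succinate. The library with the lowest sum, replicate 2 of the female *Ptk6*-/- succinate mice, was also the one with 2.84 CPM of *Angptl4*. In the female wild type succinate mice the order differed. Replicates 1, 2 and 3 had enterocyte sums of 15400, 9620 and 21800 CPM, and 11, 20.3 and 41.1 CPM of *Angptl4*. The 5 tuft cell markers, led by *Dclk1*, summed to 11.3 to 21.4 CPM in female controls and 38.2 to 139 CPM after succinate. They did not overlap in males either, with 15.9 to 18.3 and 20.5 to 31.2 CPM in wild type and 14.4 to 20.3 and 23.3 to 28.0 CPM in *Ptk6*-/- mice. The shifts in males were smaller than those in females. The 4 markers of distal small intestine did not overlap within either female genotype. They were at 143 to 1050 CPM after succinate against 1080 to 2270 CPM in wild type, and at 71.7 to 257 against 384 to 1730 CPM in *Ptk6*-/- mice. The 5 proximal markers (692 to 3290 CPM after succinate against 398 to 1390 CPM) and the 6 smooth muscle genes (3690 to 7650 against 2060 to 4640 CPM) overlapped in females. Between the female control genotypes the 7 liver genes (162 to 192 CPM in wild type, 238 to 340 CPM in *Ptk6*-/- mice) and the 5 lymphocyte markers (46.9 to 72.2 and 74.4 to 101 CPM) did not overlap. In bulk tissue, fewer cells that make a transcript and less of it per cell cannot be told apart. The part of these cell types in the *Angptl4* result was not tested.

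The calls and the groups without overlap were counted over the 8 genes in each comparison. In control males 1 gene was called, 1 had an unadjusted p under 0.05 (25.2% of all genes did), and 3 did not overlap between genotypes, where 31.4% of all genes did not. In control females edgeR called 0 of 8 genes, where it called 0.0158% of 19035 genes, and 4 of the 8 had an unadjusted p under 0.05 (11.1% of all genes did). DESeq2 called 1 of the 8 there (2.05% of all genes) and voom 5 (20.7%). In this comparison 5 of the 8 genes did not overlap, where 18.9% of all genes did not. The 5 genes were *Cpt1a*, *Cpt2*, *Acadm*, *Pdk4* and *Angptl4*, and the 3 in males were *Cpt1a*, *Acadm* and *Pdk4*. *Cpt1a* was higher and *Acadm* lower in the *Ptk6*-/- controls of both sexes, and *Pdk4* differed in direction. Over all controls 3 genes had an unadjusted p under 0.05 (23.8% of all genes), and DESeq2 called the same number (12.4% of all genes).

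Among succinate-treated mice edgeR called 0 of 8 genes between genotypes in males, with 0 at an unadjusted p under 0.05 (2.72% of all genes), and 0 of 8 in females, with 1, *Pdk4* (4.52% of all genes). It called 0% of genes in both comparisons. DESeq2 called 0 of the 8 genes in males and 0 of 7 in females, where it gave no p for *Pdk4*. The share of all genes that DESeq2 called in these comparisons is not reported here, so its counts lack a background. None of the 8 genes was without overlap in males, where 8.66% of genes were, and 1 (*Cpt2*) in females, where 10.8% were.

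For the succinate effect, edgeR called 0 of 8 genes in each of the 4 pairs of groups, where it called 0% of genes in 3 and 0.0879% in *Ptk6*-/- females. At an unadjusted p under 0.05 it found 0 genes in wild type males (4.07% of all genes), *Cpt1a* in *Ptk6*-/- males (7.75%), and *Angptl4* in wild type (7.77%) and *Ptk6*-/- females (10.7%). DESeq2, which gave no p for *Pdk4* in wild type females, called 1 of the other 7 genes there (1.39% of all genes) and 0 of the 8 in the other pairs. For those other pairs the DESeq2 share of all genes is not reported here. The groups did not overlap for 1 gene (*Pdk4*) in wild type males, where 8.77% of all genes did not, and for 3 (*Cpt1a*, *Pdk4*, *Ppara*) in *Ptk6*-/- males (23% of all genes). In females the numbers were 1 (*Angptl4*) in wild type (13.3% of all genes) and 2 (*Angptl4*, *Acadm*) in *Ptk6*-/- mice (21.2%). Over all mice 1 of the 8 genes, *Angptl4*, had an unadjusted p under 0.05 for succinate (16.1% of all genes).

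The sex effect over all mice called 0 of the 8 genes with edgeR, with 1 (*Pdk4*) at an unadjusted p under 0.05 (15.3% of all genes), where edgeR called 0.447% of genes, and DESeq2 called 0 of the 8 and 3.21% of genes. *Pdk4* had a log2 difference of 1.23 (SE 0.51) between females and males, and 0.15 (SE 0.31) without the library with heart transcripts. The interactions of genotype and succinate in males, in females, and with sex called 0 of the 8 genes, with 0 at an unadjusted p under 0.05 (3.8%, 6.46% and 5.99% of all genes) and 0 by DESeq2, and 0% of all genes with edgeR. For these interactions the DESeq2 share of all genes is not reported here. The interaction of sex and genotype in controls had 1 gene, *Pdk4*, at an unadjusted p under 0.05 (4.64% of all genes), the gene that DESeq2 (0.0979% of all genes) and voom (0.0343%) called.

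**Figure D4:**
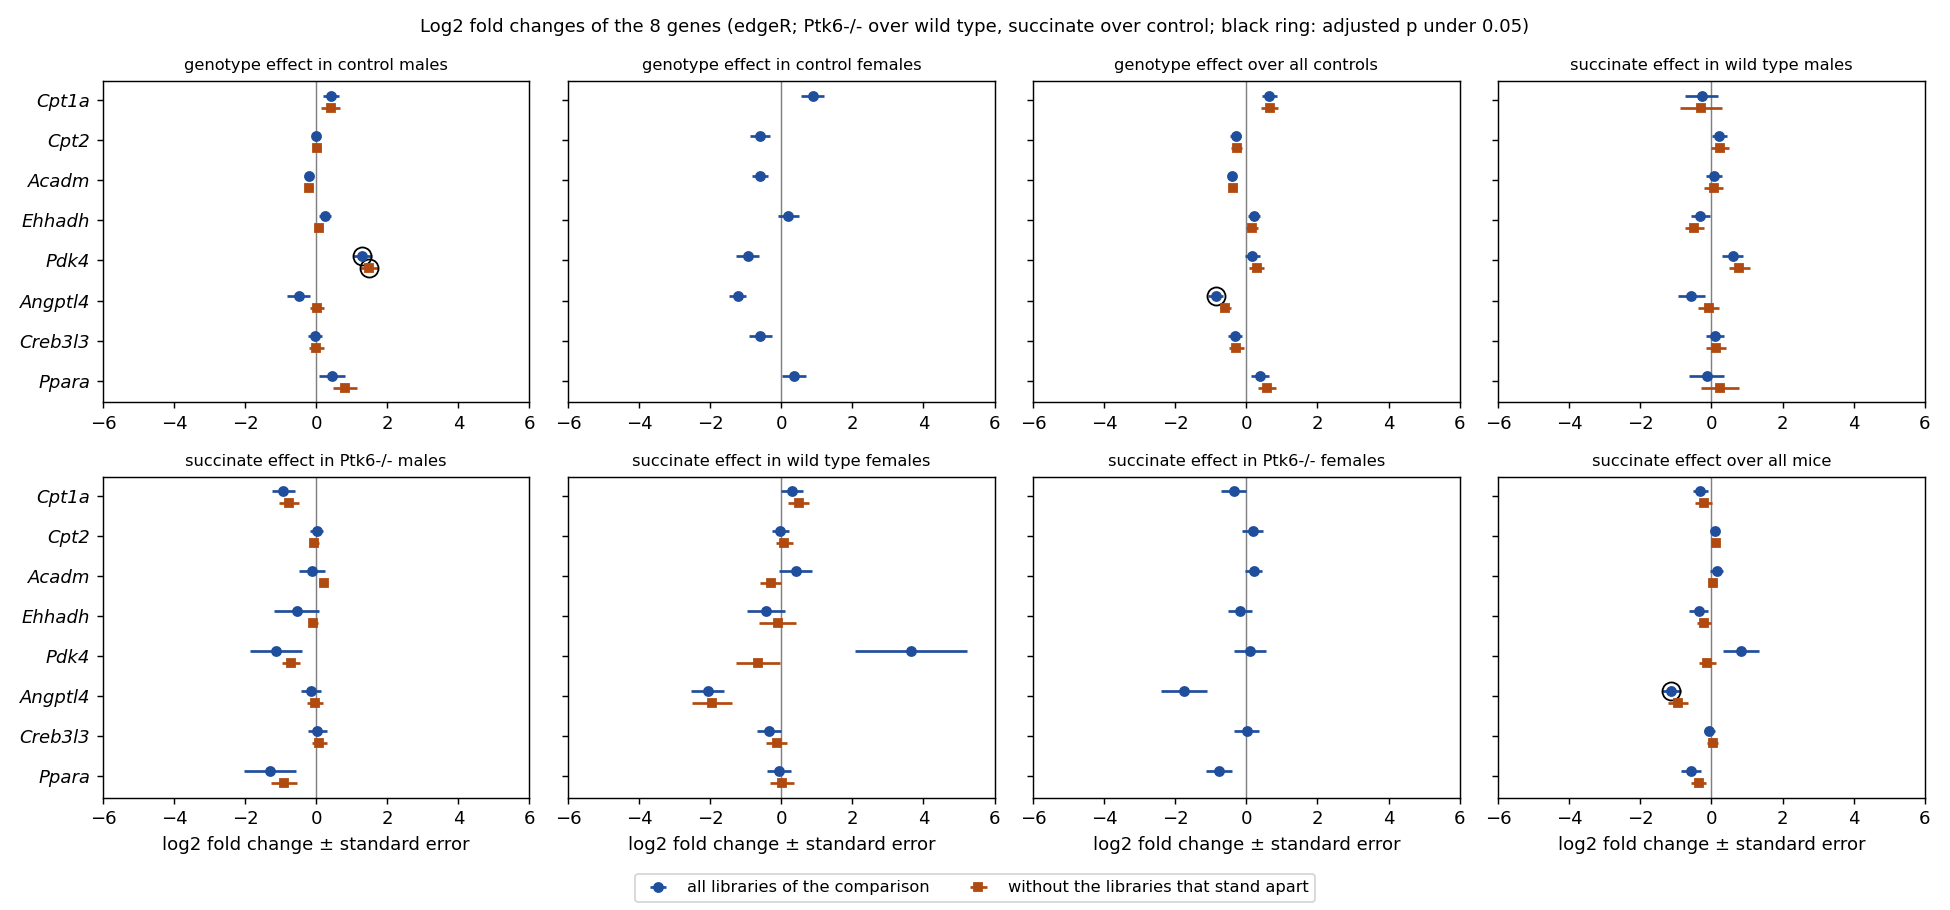
Log2 fold changes with standard errors of the 8 genes in 8 comparisons, fitted by edgeR with all libraries (circles) and without the 3 that stood apart (squares, where a comparison holds any of them), with rings for adjusted p under 0.05. The 4 rings are *Pdk4* in control males with all libraries (1.30) and without those that stood apart (1.48), *Angptl4* over all controls (-0.87) and *Angptl4* after succinate over all mice (-1.13), and *Pdk4* in wild type females moves from 3.66 to -0.66.

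The wider pathway was described by 72 further genes, of which 68 could be tested, in lists of ketone body genes, mitochondrial and peroxisomal oxidation, PPAR alpha targets and regulators. Over all controls 9 of the 68 fell and 1 rose in *Ptk6*-/- mice, beside 3.94% of all genes called. Among those that fell were the peroxisomal thiolase *Acaa1a* (-0.87, SE 0.13, edgeR adjusted p = 0.0136), the short-chain dehydrogenase *Acads* (-0.69, SE 0.11, adjusted p = 0.0152) and *Decr1*, for unsaturated chains (-0.62, SE 0.11, adjusted p = 0.0199). *Ppard*, which codes for PPAR delta, rose by 0.87 (SE 0.15, adjusted p = 0.0169). The median of the 17 mitochondrial oxidation genes was -0.36 and that of the 12 peroxisomal genes -0.11, against 0.03 over all genes tested. The medians of the 7 ketone body genes (-0.25), the 17 PPAR alpha targets tested (0.05) and the 15 regulators (0.08) lay on both sides of it, and 32 of the 68 genes were above zero and 36 below. The count of 10 called genes was 6 without replicate 1 of the male wild type controls (1.91% of all genes called), 15 with DESeq2 (12.4%), 32 with voom (36.8%) and 0 on log2 FPKM with limma (0.0931%) or with all 24 libraries in 1 fit (0.00461%). Leaving out other libraries gave 0 without replicate 2 of the male wild type (0.0198% of all genes) or replicate 3 of the male *Ptk6*-/- controls (0.0148%), 28 without replicate 3 of the female *Ptk6*-/- controls (30.1%), and 3 to 9 without any other (0.43% to 3.74%). Of those named, *Acaa1a* overlaps *Myd88* on the opposite strand, which had a median of 1638.5 counts against 7888.5. The cell marker sums that differed between the same control groups are given with *Pdk4* and *Angptl4*, and their part in these changes was not tested.

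In control males alone, 3 of the 68 pathway genes rose and 3 fell, beside 4.23% of all genes. The goblet, enteroendocrine and Paneth cell sums given for *Pdk4* belong to the same libraries, and their part in these changes was not tested. *Eci1* (-0.72, SE 0.12, edgeR adjusted p = 0.0310), which codes for an enoyl-CoA isomerase, and *Etfb* (-0.66, SE 0.13, adjusted p = 0.0364), for the beta subunit of the electron carrier of the dehydrogenases, were among those that fell. *Ppard* (0.81, SE 0.16, adjusted p = 0.0388) and *Foxo3* (0.57, SE 0.12, adjusted p = 0.0424) rose. *Cpt1b*, the muscle form of CPT1, also rose (2.30, SE 0.29, adjusted p = 0.0200), from 10, 94 and 70 counts in wild type to 426, 342 and 240 counts in *Ptk6*-/- mice. Its value is uncertain, because *Cpt1b* is overlapped on the same strand by *Gm44502*, which had a median of 472 counts against 145.5 for *Cpt1b*, and its counts fell to 0 in 2 libraries. In control females 0 of the 68 genes were called by edgeR, where 0.0158% of all genes were called, and 15 without replicate 3 of the *Ptk6*-/- controls (15% of all genes). The median log2 difference of the 68 genes was -0.20, against 0.04 over all genes. The count of 6 in males was 0 without replicate 2 or 3 of either genotype (0.0106% to 0.032% of all genes), 5 without replicate 1 of the wild type (4.78%), 7 without replicate 1 of the *Ptk6*-/- mice (4.82%), 19 with DESeq2 (15.5%) and 0 with limma on FPKM (0.0143%).

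*Bdh1*, the hydroxybutyrate dehydrogenase that links both ketone bodies, had a median FPKM of 22.3 over the 24 libraries. Its log2 difference between the genotypes was -0.22 (SE 0.10, edgeR adjusted p = 0.225) in control males and -0.27 (SE 0.20, adjusted p = 0.642) in control females, and neither passed the test. The control genotypes did not overlap, with 111 to 113 CPM in wild type and 93.5 to 103 CPM in *Ptk6*-/- males, and 113 to 132 and 95.6 to 101 CPM in females. Of all genes 31.4% in males and 18.9% in females did not overlap. Over all mice the succinate effect on *Bdh1* was 0.22 (SE 0.10, edgeR adjusted p = 0.284). By group it was 0.05 (SE 0.20) in wild type males, 0.05 (SE 0.20) in *Ptk6*-/- males, 0.23 (SE 0.26) in wild type females and 0.57 (SE 0.24, edgeR adjusted p = 0.461) in *Ptk6*-/- females. In the last the libraries went from 95.6 to 101 CPM in controls to 134 to 165 CPM after succinate, without overlap.

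After succinate, over all mice, 2 of the 68 pathway genes rose and none fell, beside 1.03% of all genes called. Without the libraries that stood apart the count was also 2 (0.539% of all genes), both from the list of ketone body genes. It was 5 with DESeq2 (3.72% of all genes), 23 with voom (21.9%), 0 with limma on FPKM (0.638%), 4 without replicate 1 of the male wild type succinate mice (2.59%) and 10 without replicate 3 of the female wild type succinate mice (5.49%). The 2 genes called with all libraries are both in the list of 7 ketone body genes, which had a median log2 difference of 0.28. *Oxct1*, the enzyme that activates acetoacetate for oxidation, rose by 1.03 (SE 0.18, edgeR adjusted p = 0.00373), and *Slc16a1*, a carrier of ketone bodies and lactate, by 0.70 (SE 0.14, adjusted p = 0.0142). The log2 differences of *Oxct1* and *Slc16a1* without the libraries that stood apart are not reported here. By group the log2 difference of *Slc16a1* was 0.84 (SE 0.28) in wild type females, 1.50 (SE 0.32) in *Ptk6*-/- females, 0.52 (SE 0.25) in wild type males and -0.06 (SE 0.20) in *Ptk6*-/- males, with edgeR adjusted p from 0.251 to 0.947. In females *Oxct1* stood at 106, 117 and 101 CPM in wild type controls and at 311, 469 and 128 CPM after succinate, and at 99.8, 102 and 82.0 CPM in *Ptk6*-/- controls and at 219, 410 and 313 CPM after succinate. Every female succinate library was above every female control library. Wild type males went from 75.5 to 94.9 CPM of *Oxct1* in controls to 107 to 213 CPM after succinate, also without overlap, while *Ptk6*-/- males overlapped, with 84.8 to 97.4 and 69.1 to 124 CPM. The value of 469 is that of the library with heart transcripts. In the same female libraries the tuft cell markers summed to 11.3 to 21.4 CPM in controls and 38.2 to 139 CPM after succinate, without overlap. The smooth muscle genes (2060 to 4640 against 3690 to 7650 CPM) overlapped. Within each female genotype the enterocyte genes did not overlap and were lower after succinate. They went from 27200 to 31600 CPM to 9620 to 21800 CPM in wild type and from 16000 to 29500 CPM to 5870 to 14100 CPM in *Ptk6*-/- mice. The female succinate library with the lowest *Oxct1*, replicate 3 of the wild type mice, had the lowest tuft and proximal sums among the female succinate libraries, 38.2 and 692 CPM, and the part of these cells in the *Oxct1* result was not tested.

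**Figure D5:**
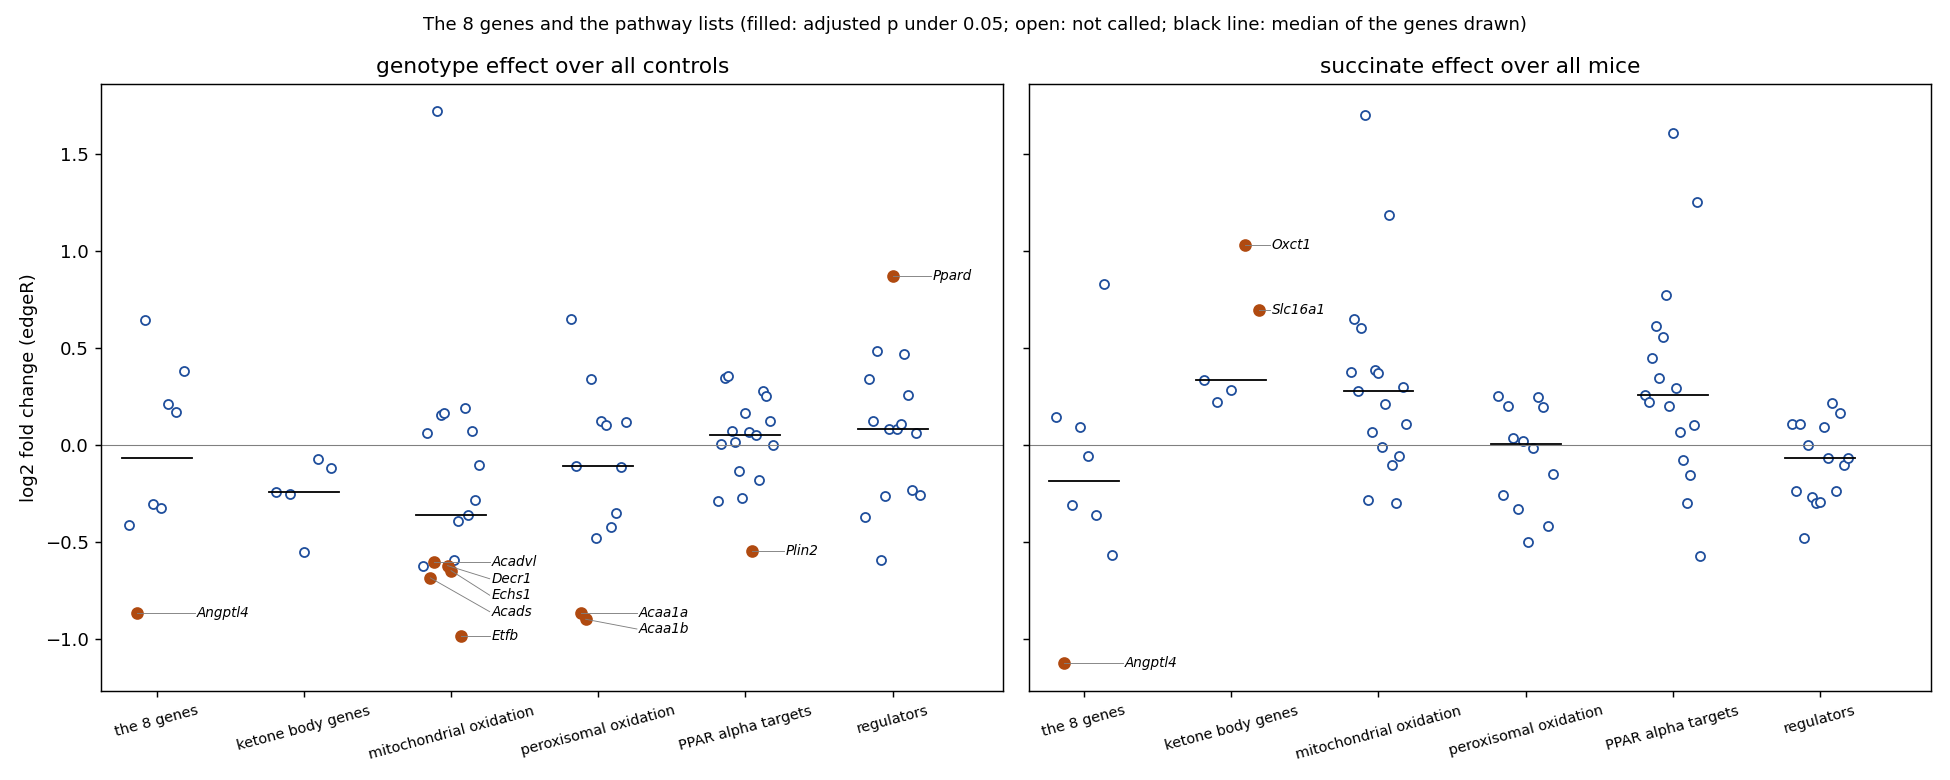
Log2 fold changes (edgeR) of the 8 genes and of 5 pathway lists for the genotype effect over all controls and the succinate effect over all mice, with called genes filled and named and a line at each median of the genes drawn (5 of the 7 ketone body genes are drawn). Mitochondrial oxidation genes have a median of -0.36 between genotypes, and *Oxct1* (1.03) and *Slc16a1* (0.70) are the called pathway genes after succinate.

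Some of the 8 genes varied together across the 24 libraries. Correlations of log2 CPM were computed for all 28 pairs, and 4 had an adjusted permutation p under 0.05. The permutations ran over all 24 libraries and not within groups, so shifts that 2 genes share between groups count in p. *Cpt1a* and *Ehhadh* had a Pearson r of 0.62 (permutation p = 0.00078, adjusted over the pairs 0.00728) and a Spearman rho of 0.69 (permutation p = 0.00033), and r was 0.64 without the 2 libraries farthest from the median of *Cpt1a* and 0.60 after the group means were taken out. *Cpt1a* and *Ppara* had an r of 0.51 (permutation p = 0.00537, adjusted 0.0376) and a rho of 0.79 (permutation p = 3e-05). Their r was 0.51 without the 2 farthest libraries, 0.79 over the 21 libraries left without those that stood apart, and 0.88 over the same 21 after the group means were taken out. *Acadm* and *Pdk4* had an r of 0.89 (permutation p = 7e-05, adjusted 0.00196) and a rho of 0.57 (permutation p = 0.00395), and r was 0.47 without the 2 farthest libraries, 0.47 over the 21, and 0.82 without either the library with heart transcripts or replicate 1 of the male *Ptk6*-/- succinate mice alone. *Ehhadh* and *Ppara* had an r of 0.77 (permutation p = 0.00072, adjusted 0.00728) and a rho of 0.57 (permutation p = 0.00422). Their r was 0.41 without the 2 libraries farthest from the median of *Ehhadh* and 0.43 without replicate 1 of the male *Ptk6*-/- succinate mice alone, which had 0 counts of *Ppara*. Leaving out each library that stood apart on its own was added after the correlations were seen. Over the 21 libraries, after the group means were taken out, r was 0.61 for *Acadm* and *Pdk4* and 0.42 for *Ehhadh* and *Ppara*. The genes of a pair share the depth and the tissue makeup of each library.

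The genes with the most similar pattern to each of the 8 were taken from 13938 genes by Pearson r over 24 libraries. For *Cpt1a* they were *Ehmt1* (0.92), *Hjurp* and *Wdr48* (both 0.91), and for *Cpt2* *Marf1*, *Pnma8b* (both 0.81) and *Cdk11b* (0.78). For *Acadm* they were *Phyh* (0.92), which starts the breakdown of branched fatty acids in peroxisomes, *Etfa* (0.91), a subunit of the electron carrier of the dehydrogenases, and *Pdk4* (0.89). For *Ehhadh* they were *Lypla1*, *Aldh3a2* and *Glyr1* (all 0.97), and for *Ppara* *Bbx*, *Dcaf17* (both 0.97) and *Cpt1c* (0.96). For *Pdk4* they were *Rcan2* (0.96), *Grip2* and *Lrrc39* (both 0.95). For *Angptl4* they were *Dnase1*, *Slc5a11* (both 0.88) and *Cyp27a1* (0.87), and for *Creb3l3* *Dpep1* (0.88), *Tmem106a* and *Klc4* (0.85 and 0.84). Over the 21 libraries without those that stood apart, *Phyh* stayed first for *Acadm* (0.94). First place passed to *Slc5a4b* for *Angptl4* (0.94), *Reck* for *Pdk4* (0.78), *Tmem106a* for *Creb3l3* (0.89), *Asxl1* for *Cpt1a* (0.96), *Cmtm4* for *Cpt2* (0.86), *Tmod3* for *Ehhadh* (0.94) and *Zfp366* for *Ppara* (0.88).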

How the data were processed

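Distal jejunum RNA of 24 mice was grouped by the sex, genotype and treatment in the labels, 3 mice per group. The counts, as deposited by the authors, are reads per gene without normalization. The FPKM values, as deposited by the authors, are fragments scaled to transcript length and library size, from StringTie and ballgown. The study's methods describe poly(A) selection, stranded dUTP libraries, Cutadapt and HISAT2. The submitters' processing notes name FastQC, StringTie and GRCm39. The program that made the counts and its strand setting are not given in the sources used here, so overlapping genes may share reads. FPKM sums differed between libraries (288179 to 2064791), so libraries were compared by TMM-scaled CPM and genes by FPKM.

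Counts were tested in R 4.3.3 with edgeR 4.0.16 (quasi-likelihood test, TMM). A gene entered a comparison with 10 or more counts in 3 or more of its libraries, and was called when its p, adjusted by Benjamini-Hochberg over all genes tested, was under 0.05. SE is the size of the log2 difference over the square root of F. All 8 genes passed the filter in every comparison. The 15 comparisons were 8 pairs of groups that differ in genotype or in treatment, and 7 averages and interactions. Comparisons that share mice are not independent. Alternatives were DESeq2 1.42.0, its size factors, no filter, a stricter filter, a block for the replicate number, an offset for the trend with gene length (loess span 0.3), voom with sample quality weights, limma 3.58.1 on log2(FPKM + 1) where mean FPKM reached 0.5, 1 fit of all libraries, a fold change of 2 or more, and leaving out libraries. The sex by succinate comparison was added after the values were seen.

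All 8 genes were named in every comparison. Where pathway genes were called, up to 4 per direction were taken by adjusted p, and *Bdh1* in any case. Some genes that this rule takes are counted in the lists but not reported here. *Oxct1* per library was chosen after its values were seen. The genes most similar in pattern had a mean of at least 1 CPM, and log2 CPM used a prior count of 1. The 8 genes and the lists were chosen with earlier results of these data known. Scripts were tested on simulated data. Each library is labelled as 1 mouse, and p-values measure the spread between the libraries in the fit of each comparison. Whether the library with heart and Y-linked transcripts, labelled female, holds 1 mouse was not tested.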

Additional observations from a re-analysis of the deposited data

How the results depend on the processing

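The same replicate numbers did not pair the mice: in 0 of 8 pairs of groups was every same-number correlation over 0.1 (range -0.321 to 0.21). With the replicate block the calls among the 8 genes went from 1 to 0 for the genotype effect in control males (*Pdk4*, log2 difference 1.27, adjusted p = 0.0596, 0.026% of all genes called), over all controls (*Angptl4*, -0.85, 0.0728, 1.08%) and for succinate over all mice (*Angptl4*, -1.15, 0.0608, 0.705%), and with block and length offset to 0 in the first 2 (0.026% and 0.866%). The block changed no other call. For the genotype effect in control males, the length offset (0.421%), limma on FPKM (0.0143%) and all 24 libraries in 1 fit (0.00461%) also gave 0. Over all controls, DESeq2 gave 3 calls (12.4% of all genes), at least 10 counts in every library 2 (8.46%), voom 5 (36.8%), and DESeq2's size factors (3.93%), limma on FPKM (0.0931%), all 24 libraries in 1 fit (0.00461%), a fold change of at least 2 (0.705%) and the fit without the 3 libraries that stood apart (1.91%) 0; the length offset gave 1 (3.08%), *Acadm* in place of *Angptl4*. For succinate over all mice voom gave 3 (21.9%) and the fit without those 3 libraries 0 (0.539%). Where edgeR called 0, DESeq2 gave 1 in control females (2.05%), in wild type females after succinate (1.39%) and for the interaction of sex and genotype (0.0979%), and voom gave 5 in control females (20.7%), 3 in wild type males after succinate (21.8%) and 1 for that interaction (0.0343%).

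Leaving out each library in turn gave 0 to 1 calls in control males, 0 to 3 in control females, 0 to 4 over all controls, 0 to 1 for succinate in wild type males, in wild type females and over all mice, and 0 to 0 in the other 9 comparisons. The 3 and the 4 came without replicate 3 of the female *Ptk6*-/- controls, where 15% and 30.1% of all genes were called. The 1 call in wild type males and in wild type females came without replicate 1 and replicate 3 of their succinate mice (14.6% and 3.23%), and the 1 in control males without replicate 1 of the wild type (4.78%). Of 120 values for the 8 genes, the 3 called kept their direction under every alternative, and 51 uncalled values changed sign under at least 1. Depth limits *Ppara* (0 to 444 counts per library) and *Pdk4* (0 to 472 outside the library with heart transcripts) most. The cause of these shifts was not tested.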
